A study of Mus musculus and Rattus norvegicus with 60 samples.

Results

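Vascular endothelial growth factors (Vegf ligands) are secreted proteins that act on receptor tyrosine kinases of endothelial cells, the cells that line blood vessels. In the growth plate, the cartilage at the end of a growing bone, Vegfa made by hypertrophic chondrocytes draws vessels from the metaphysis into the last row of cartilage, which is then replaced by bone. Healthy growth plate cartilage itself holds no vessels, so endothelial transcripts in a capture may come from vessels at its border or within it. Which cells made them was not tested here. The genes described here are 10: the ligand genes Vegfa, Vegfb and Vegfc, the receptor genes Kdr, Flt1, Nrp1 and Tek, and the endothelial surface genes Pecam1, Cdh5 and Emcn. They were chosen by name, and all 10 symbols were found among the 20155 mouse and 15163 rat genes used.

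Expression was measured by RNA-Seq in proliferative (PZ) and hypertrophic (HZ) growth plate zones, cut out by laser capture from wild-type male C57BL/6 mice and Sprague Dawley rats fed ad libitum, with no treatment. In each species there were 6 groups, PZ and HZ for each of 3 growth plates: the proximal tibia at 1 week, the proximal tibia at 4 weeks, and a forelimb growth plate at 1 week, that of the proximal phalanx. Each group had 5 libraries, except the mouse 1-week phalanx PZ, which had 4. Since the tibia belongs to the hindlimb, a difference of bone cannot be told apart from a difference of limb. Levels are counts after Relative Log Expression scaling (normalized counts), given as mean ± SD over libraries. Differences are fitted log2 differences ± SE from a limma model over the 6 groups of a species on log2(normalized count + 1), a scale that understates changes of low genes. Called means an adjusted p under 0.05 (Benjamini-Hochberg over the 15213 mouse or 11760 rat genes tested). The mouse and rat tables were normalized separately, and no test was made between species.

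All 10 genes were tested in the mouse and 9 of 10 in the rat. The rat row for Vegfa is annotated to a noncoding transcript and held 4 reads in all over 30 libraries, with 28 libraries at 0. It therefore says nothing about rat Vegfa mRNA, and every Vegfa result below is from the mouse.

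Reads counted in genes numbered 19725320 to 41881803 per mouse library and 7817389 to 29033059 per rat library. In the mouse, Rn45s (ribosomal RNA precursor) took 31.0% to 80.8% of them, which left 5246147 to 27676473 reads in other genes. The labels were checked with zone markers. The library labelled mouse 1-week phalanx HZ replicate 5 held a summed 45247 normalized counts over 7 PZ marker genes, against 1870 to 4347 in the other 4 libraries of its group. Its Gdf10, a PZ marker, stood at 1340 against 89.7 to 174, while its Col10a1, the collagen of hypertrophic chondrocytes, stood at 59078, within the group's range. Its sum over 8 HZ marker genes was 189019, below the 234579 to 313623 of the others. The library labelled rat 4-week tibia HZ replicate 3 likewise held 121139 over the PZ markers against 40503 to 67914, and 307115 over the 7 HZ markers in the rat table against 526941 to 1175361. Of the member calls in comparisons that hold either of these HZ libraries, 1 changed without it. That was mouse Nrp1 between bones in the HZ, which was gained. Other values without these HZ libraries stand beside the results they touch, while counts over marker lists of other cells include them. Rat 1-week phalanx PZ replicate 3 held 197928 over the 7 HZ markers, against 57454 to 107462 in the other libraries of its group. Its PZ marker sum of 72877 was the lowest of the group. Without this library the rat call of Emcn between bones in the PZ was lost (adjusted p = 0.068).

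Mouse promoter windows, from 250 bases before to 50 bases after the gene start (RefSeq, GRCm38.p6), were found for 8 of 10 genes. Pecam1 and Cdh5 had no entry. Windows are shown for Vegfa and for 3 endothelial genes that were higher together in the HZ, 5′ to 3′ on the gene's own strand. Tek was higher in the HZ with them, but its window is not shown. Capitals mark GGAAG and its reverse complement CTTCC. They are a longer form of the GGAA core read by ETS transcription factors, a family active in endothelial cells.
Kdr (chr5:75978406-75978705, minus strand): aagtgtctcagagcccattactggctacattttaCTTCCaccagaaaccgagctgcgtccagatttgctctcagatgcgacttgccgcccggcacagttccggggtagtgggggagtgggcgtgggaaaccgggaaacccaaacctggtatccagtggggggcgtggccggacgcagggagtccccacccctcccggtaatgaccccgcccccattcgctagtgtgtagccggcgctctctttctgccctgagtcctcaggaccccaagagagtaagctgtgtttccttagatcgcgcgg
Flt1 (chr5:147725962-147726261, minus strand): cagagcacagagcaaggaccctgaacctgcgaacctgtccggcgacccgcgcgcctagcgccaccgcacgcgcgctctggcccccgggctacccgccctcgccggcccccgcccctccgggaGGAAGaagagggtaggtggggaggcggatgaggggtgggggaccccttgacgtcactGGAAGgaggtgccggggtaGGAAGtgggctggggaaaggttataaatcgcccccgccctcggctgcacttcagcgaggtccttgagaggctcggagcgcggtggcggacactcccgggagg
Emcn (chr3:137340828-137341127, plus strand): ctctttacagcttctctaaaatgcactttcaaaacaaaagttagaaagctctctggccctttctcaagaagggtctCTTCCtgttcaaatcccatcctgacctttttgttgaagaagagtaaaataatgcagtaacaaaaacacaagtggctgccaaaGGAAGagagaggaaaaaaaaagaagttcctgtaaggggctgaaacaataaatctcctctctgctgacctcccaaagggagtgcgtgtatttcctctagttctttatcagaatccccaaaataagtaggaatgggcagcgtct
Vegfa (chr17:46032328-46032627, minus strand): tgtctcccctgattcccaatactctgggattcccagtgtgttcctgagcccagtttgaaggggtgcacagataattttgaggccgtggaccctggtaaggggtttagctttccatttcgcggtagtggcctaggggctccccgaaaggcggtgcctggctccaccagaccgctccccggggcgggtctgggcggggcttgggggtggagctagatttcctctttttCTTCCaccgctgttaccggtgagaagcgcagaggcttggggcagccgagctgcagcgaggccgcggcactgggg
The Kdr window held 1 match, the Flt1 window 3, the Emcn window 2 and this Vegfa window 1. Such letters were common: 71.4% of all 32851 windows held at least 1 match on either strand. Among the other members, Nrp1 held 4 matches, and the windows of Tek, Vegfb and Vegfc held 0. The 3 endothelial windows shown are thus those with a match, and a match was not common to the endothelial genes. Each of these windows with 0 did hold the shorter GGAA or TTCC, which was not marked or counted. The letters ACGTG or CACGT, the core of the hypoxia response element, were present in 19.6% of all windows. They were not in this Vegfa window and occurred 1 time in the window of a second Vegfa start at chr17:46025114-46025413.

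On the annotation of the same mouse genome (GENCODE M21, GRCm38), Vegfa lies on chromosome 17 from 46016993 to 46032369 on the minus strand and Kdr on chromosome 5 from 75932827 to 75978458, also on the minus strand. Levels were divided by kilobases of exon, with the exons of all transcripts of a gene joined, which allows only a rough comparison between genes. On this scale Vegfa was the most abundant member in the mouse 1-week tibia in both zones. It stood at 2120 normalized counts per kb in the HZ and 585 in the PZ. In the 1-week tibia HZ it was followed by Cdh5 at 1067 and Pecam1 at 244 per kb. The kinase receptors Kdr, Tek and Flt1 stood at 144, 117 and 100.5 per kb there, and Vegfb and Vegfc were lowest at 62.5 and 35.1 per kb. In the phalanx HZ the order of the first pair turned, with Cdh5 at 1054 and Vegfa at 713 per kb.

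Vegfa, the main attractant of vessels, was high in the tibia HZ at both ages and 2.94-fold lower in the phalanx HZ. Its 5 mouse 1-week tibia HZ libraries stood at 7893, 11773, 8451, 10818 and 6483 normalized counts (mean 9084 ± 2169). In the 4-week tibia HZ they stood at 9084, 5856, 9649, 9731 and 7646 (8393 ± 1646). In the 1-week phalanx HZ they stood at 3254, 2596, 2751, 3963 and 2715 (3056 ± 566). Every phalanx HZ library was thus below every tibia HZ library, as for 3.88% of all genes against the 1-week tibia, whereas the tibia HZ groups of 1 and 4 weeks overlapped. The log2 difference phalanx minus tibia in the HZ was -1.56 ± 0.22 (adjusted p = 6.4e-06). Between 4 and 1 weeks in the tibia HZ it was -0.11 ± 0.22 (95% interval -0.55 to 0.34), which was not called.

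In the PZ, Vegfa fell with age and did not differ detectably between bones. The mouse 1-week tibia PZ libraries held 3147, 3320, 2770, 2142 and 1163 normalized counts (2508 ± 878). The 4-week tibia PZ libraries held 996, 1073, 774, 915 and 1353 (1022 ± 216), so that 1 library of the younger group, replicate 5, lay inside the range of the older. The log2 difference with age was -1.23 ± 0.22 (adjusted p = 3.8e-04), a 2.34-fold lower level. The 4 phalanx PZ libraries held 2595, 2672, 2254 and 1712 (2308 ± 437), within the range of the tibia PZ, and the log2 difference between bones was -0.05 ± 0.23 (95% interval -0.52 to 0.43).

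Between zones, Vegfa was 3.77-fold higher in the HZ than in the PZ of the 1-week tibia (log2 difference 1.92 ± 0.22, adjusted p = 3.3e-08) and 8.20-fold higher in the 4-week tibia (3.04 ± 0.22, 8.9e-12). Neither tibia had overlapping zones. In the phalanx the zones overlapped, and the log2 difference was 0.41 ± 0.23 (95% interval -0.07 to 0.88, adjusted p = 0.18). The test of the difference between bones in this zone effect gave -1.51 ± 0.32 (adjusted p = 2.3e-03), and the zone effect of Vegfa was thus smaller in the phalanx. Without the phalanx HZ library that held PZ markers, this value was -1.47 (adjusted p = 3.5e-03), and the difference between bones in the HZ was -1.52 (2.3e-05). The zone effect was larger at 4 weeks than at 1 week by 1.12 ± 0.31 (adjusted p = 0.047), but that call was lost on leaving out any of 15 of the 20 tibia libraries, with adjusted p up to 0.10 over the alternatives. The 5 libraries without which it held were 1-week HZ replicates 2 and 4, 1-week PZ replicate 5, 4-week HZ replicate 2 and 4-week PZ replicate 5. In order of means, mouse Vegfa ran from the 1-week tibia HZ over the 4-week tibia HZ, phalanx HZ, 1-week tibia PZ and phalanx PZ to the 4-week tibia PZ. The ranges of neighbours overlapped in this order except between the 4-week tibia HZ and the phalanx HZ, and between the phalanx PZ and the 4-week tibia PZ.

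**Figure D1:**
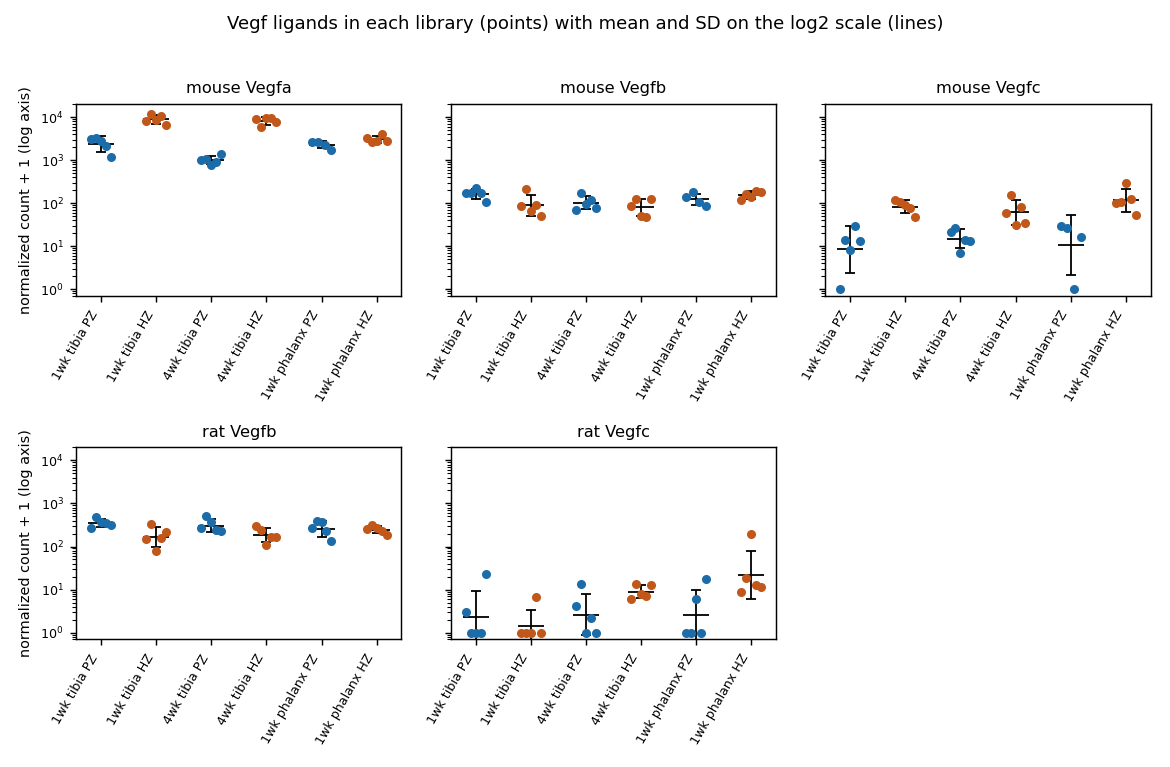
Normalized count + 1 (log axis) of the Vegf ligand genes in each library, by group (PZ blue, HZ orange); black lines are the mean and SD on the log2 scale. Mouse Vegfa in the phalanx HZ lies between 2596 and 3963, below all 10 tibia HZ libraries, and rat Vegfc is at 0 (drawn at 1) in 12 of 30 libraries.

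The mouse HZ captures of the phalanx and the tibia differed in more than Vegfa. Over 9 chondrocyte genes the summed level was 134689 to 1086498 normalized counts in the phalanx HZ and 778200 to 1803355 in the 1-week tibia HZ, with 7 of 9 called lower in the phalanx and 0 higher. Over 10 osteoclast genes it was 98473 to 212695 against 43786 to 84777, with 4 of 10 called higher. None of either list was at 0 throughout a group. The highest chondrocyte sum in the phalanx HZ was that of the library with PZ markers. The part of capture composition in the lower Vegfa level was not tested. In bulk captures such as these, fewer cells of a type and less RNA per cell cannot be told apart.

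Among 26 tested genes of a hypoxia response list, to which Vegfa also belongs by its known regulation, 10 were called lower and 1 higher in the mouse phalanx HZ than in the 1-week tibia HZ, with a list median of -0.50 against 0.13 over all genes tested. Of all genes, 9.20% were called lower in that comparison. The 11 genes called in either direction became 7 in a fit of only the groups compared, and 12 without the phalanx HZ library that held PZ markers. The glucose transporter Slc2a1 fell from 3458 ± 1419 to 487 ± 201 normalized counts (log2 difference -2.82 ± 0.28, adjusted p = 2.1e-08). The carbonic anhydrase Car12 fell by 3.85 ± 0.52 on the log2 scale (1.0e-05) and the mitochondrial gene Ndufa4l2 by 3.05 ± 0.53 (1.1e-04). In the PZ, where Vegfa did not differ between bones, 15 of 26 were called lower in the phalanx and 0 higher, with a list median of -0.97, and 1.86% of all genes were called lower. Gapdh and Ldha, glycolytic enzymes, fell there by 1.09 ± 0.13 (1.0e-06) and 1.34 ± 0.19 (1.2e-05) on the log2 scale.

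In the rat, where Vegfa could not be read, 15 of 24 tested hypoxia response genes were called lower in the phalanx HZ than in the tibia HZ and 0 higher, with a list median of -1.07. Of all rat genes, 16.3% were called lower there. In the rat PZ it was 14 of 24, against 3.67% of all genes. Car12 and the vasoactive peptide gene Adm, with log2 differences of -3.87 ± 0.22 (adjusted p = 2.2e-15) and -4.28 ± 0.42 (2.2e-09), led the list. In the zone comparisons the list did not follow Vegfa: in the mouse 1-week tibia 16 of its 26 genes were called lower in the HZ and 4 higher, with a median of -1.04, while Adm rose by 5.35 ± 0.75 (5.6e-07).

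Vegfb, a ligand of Flt1, ran opposite to Vegfa between zones of the 1-week tibia. Its mouse 1-week tibia libraries stood at 169, 167, 228, 175 and 105 normalized counts in the PZ and at 82.7, 217, 64.3, 89.8 and 48.1 in the HZ. All but 1 of the HZ libraries were below the lowest PZ library. The log2 difference was -0.90 ± 0.37 (adjusted p = 0.048). Rat 1-week tibia PZ libraries held 265 to 478 (median 358), and HZ libraries 76.0 to 336 (median 158), a log2 difference of -1.07 ± 0.32 (7.9e-03). Leaving out any of 8 of the 10 libraries, all but HZ replicate 2 and PZ replicate 5, took the mouse call away (adjusted p up to 0.14), and no alternative took the rat call away. In the 4-week tibia and the phalanx no zone difference of Vegfb was called in either species, nor was any difference with age or bone.

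Vegfc, the ligand of Flt4 and a lymphatic growth factor, was low throughout. In the mouse it stood at 86.0 ± 27.7 normalized counts in the 1-week tibia HZ, 72.1 ± 52.0 in the 4-week tibia HZ and 135 ± 93.0 in the phalanx HZ, against PZ means of 11.9 to 17.1. No HZ group overlapped its PZ. The log2 differences were 3.30 ± 0.80 (adjusted p = 1.0e-03), 2.02 ± 0.80 (0.046) and 3.45 ± 0.85 (1.6e-03). The call in the 4-week tibia was lost on leaving out any of 7 of its 10 libraries, all but HZ replicates 3 and 5 and PZ replicate 2. In the rat, Vegfc was at 0 in 12 of 30 libraries. In the rat phalanx HZ the libraries held 7.66, 17.6, 199, 11.8 and 10.7 normalized counts, and 4 of the 5 libraries of the tibia HZ held 0, the other 5.70. That bone difference was called (adjusted p = 2.8e-03), and so was the zone difference in the phalanx (0.014), but the latter was lost without the library at 199, phalanx HZ replicate 3 (0.070). The fitted size of either depends on the added count and is not given.

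The 6 endothelial genes Kdr, Flt1, Tek, Pecam1, Cdh5 and Emcn were each called higher in the HZ in all 3 growth plates of both species. In the mouse their HZ minus PZ log2 differences ran from 4.77 to 5.99 in the 1-week tibia (median 5.23), 3.08 to 4.22 in the 4-week tibia (4.05) and 3.11 to 3.77 in the phalanx (3.39). In the rat they ran from 3.44 to 4.93 (4.42), 3.55 to 4.64 (4.01) and 2.53 to 4.39 (3.87). Without the library that held PZ markers they ran from 3.33 to 3.87 in the mouse phalanx and from 3.91 to 5.18 in the rat 4-week tibia, all called. Together with Nrp1 and the ligands, members called higher in the HZ numbered 9, 9 and 8 of 10 in the mouse 1-week tibia, 4-week tibia and phalanx. Of all genes tested, 20.4%, 18.6% and 17.9% were called higher there. In the rat they numbered 7, 7 and 8 of 9, against 22.6%, 13.5% and 22.9% of all genes. The zones did not overlap, with the HZ higher, for 9, 9 and 8 of 10 members in the mouse and 13.1%, 17.9% and 12.9% of all genes, and for 6, 5 and 7 of 9 in the rat and 14.6%, 8.51% and 14.7% of all genes. Members called lower were 1 of 10 in the mouse 1-week tibia and 1 of 9 in the rat, both Vegfb, against 23.7% and 19% of all genes. Medians of all genes were between -0.15 and 0.08 in these 6 comparisons.

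Kdr encodes the main signalling receptor for Vegfa. In the mouse 1-week tibia its PZ libraries stood at 25.9, 20.7, 23.8, 43.2 and 69.5 normalized counts and its HZ libraries at 747, 1815, 974, 2015 and 959, a log2 difference of 5.15 ± 0.42 (adjusted p = 1.3e-11). The lowest HZ library thus stood well above the highest PZ library. Rat 1-week tibia PZ libraries held 179, 100.1, 57.4, 194 and 34.7, and HZ libraries 4061, 653, 646, 2967 and 1180, a difference of 3.93 ± 0.69 (5.6e-05). Zones of Kdr did not overlap in any growth plate of either species.

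Flt1 encodes a Vegf receptor that binds ligand tightly and signals weakly. Mouse Flt1 averaged 51.7 ± 49.8 normalized counts in the 1-week tibia PZ and 1357 ± 562 in the HZ (log2 difference 5.09 ± 0.54, adjusted p = 1.3e-08). It reached 997 ± 405 in the 4-week tibia HZ and 1400 ± 405 in the phalanx HZ. In the rat 4-week tibia its zones overlapped, since HZ replicate 3, the library with PZ markers, stood at 211 and the highest PZ library at 225. The rat difference there was 4.49 ± 0.99 (1.7e-03), and 5.03 without that library (6.1e-04). Tek, the receptor for angiopoietins, rose by 4.77 ± 0.69 (2.4e-06), 3.08 ± 0.69 (8.6e-04) and 3.30 ± 0.73 (8.2e-04) between PZ and HZ of the mouse 1-week tibia, 4-week tibia and phalanx. The smallest called difference of the 6 genes was that of rat Tek in the phalanx, at 2.53 ± 0.83 (0.016).

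**Figure D2:**
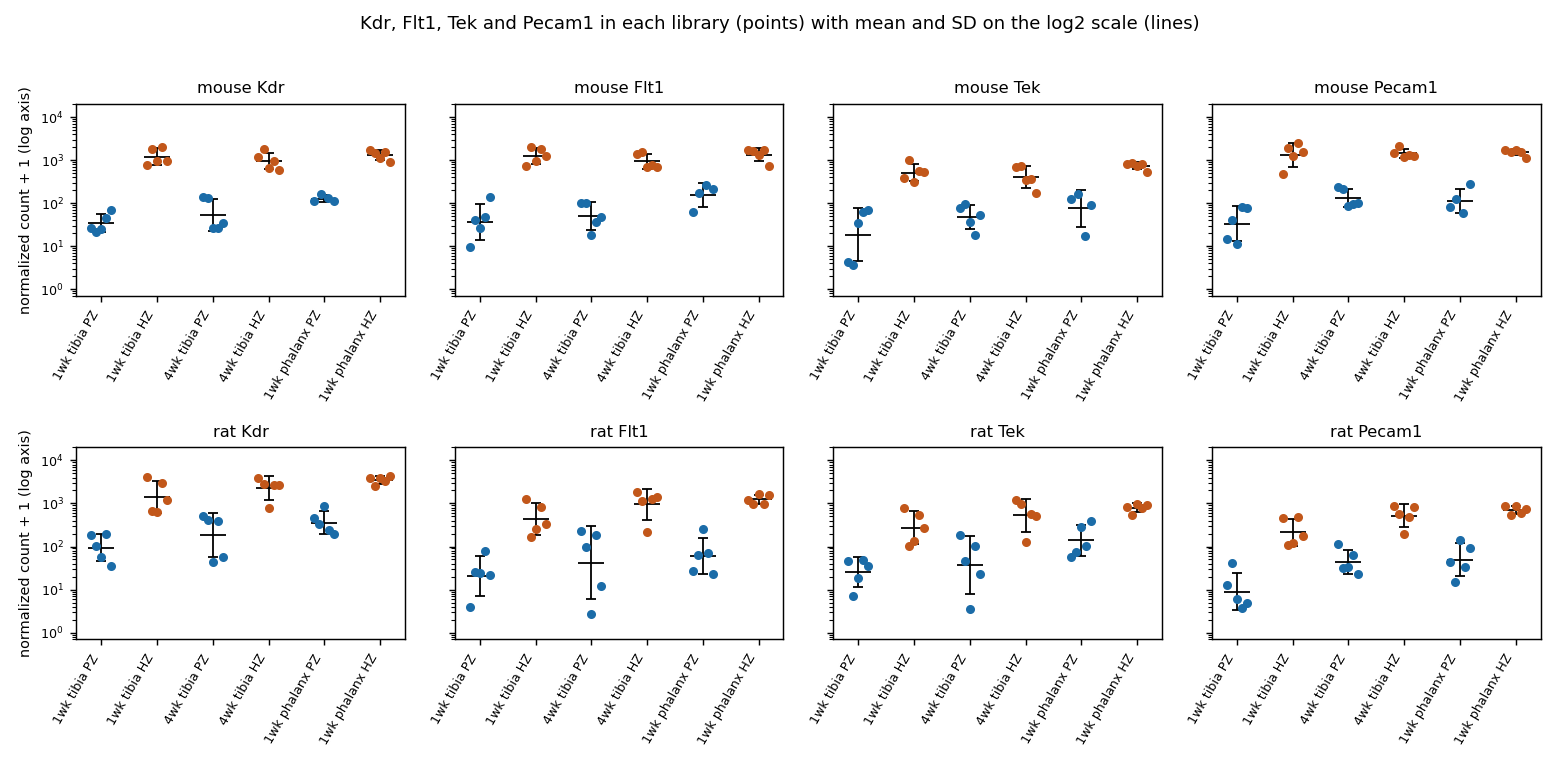
Normalized count + 1 (log axis) of Kdr, Flt1, Tek and Pecam1 in each mouse (top) and rat (bottom) library by group (PZ blue, HZ orange); black lines are the mean and SD on the log2 scale. In the mouse 1-week tibia Kdr lies at 20.7 to 69.5 in the PZ and at 747 to 2015 in the HZ.

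Cdh5 encodes VE-cadherin of endothelial junctions and was the most abundant of the 6 per kb in each mouse HZ group. Mouse 1-week tibia PZ libraries held 23.8, 88.4, 45.7, 146 and 307 normalized counts, and HZ libraries 821, 6394, 3925, 7639 and 3648. The zones did not overlap (log2 difference 5.37 ± 0.62, adjusted p = 1.9e-07). Rat 4-week tibia HZ libraries held 6649, 5029, 830, 4433 and 5637, and PZ libraries 478, 325, 6.62, 648 and 93.0. The zones did not overlap there either. The difference was 4.64 ± 0.89 (4.5e-04), or 5.18 (1.3e-04) without the HZ library of replicate 3. Emcn, the sialomucin of capillary and venous endothelium, showed the largest fitted mouse difference, 5.99 ± 0.78 (8.3e-07) in the 1-week tibia, from 30.7 ± 42.4 to 878 ± 437. A PZ library there stood at 0 for Emcn, so this size and its rank depend on the added count. Pecam1, the CD31 antigen of endothelium and platelets, went from 44.1 ± 33.6 to 1521 ± 757 (5.31 ± 0.49, 1.2e-09).

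**Figure D3:**
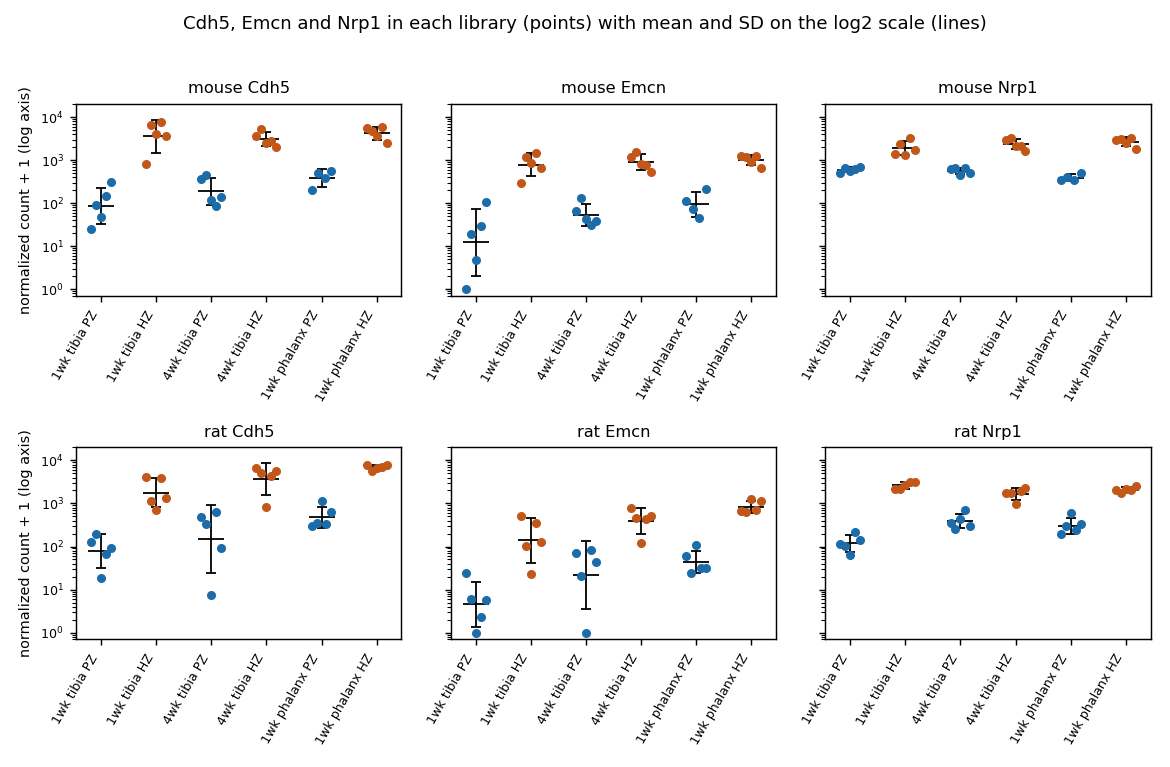
Normalized count + 1 (log axis) of Cdh5, Emcn and Nrp1 in each mouse (top) and rat (bottom) library by group (PZ blue, HZ orange); black lines are the mean and SD on the log2 scale. Mouse Cdh5 in the 1-week tibia lies at 23.8 to 307 in the PZ and at 821 to 7639 in the HZ, and rat Nrp1 in the 1-week tibia PZ is low at 63.6 to 221.

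In some groups the 6 endothelial genes ranked the libraries alike. In the mouse phalanx HZ, replicate 5 was the lowest for 6 of 6. In the rat 4-week tibia HZ, replicate 3 was the lowest and replicate 1 the highest for 6 of 6. In the rat 1-week phalanx HZ, replicate 2 was the lowest for 6 of 6. Its PZ marker sum of 51113 was the highest of its group, with the others at 19321 to 35607. Its HZ marker sum of 462442 was the lowest, with the others at 527256 to 652185. Rat 1-week phalanx PZ replicate 3 was the highest for 5 of 6. In the mouse 1-week tibia PZ, replicate 5 was the highest for 5 of 6, and in the mouse 1-week tibia HZ replicate 1 was the lowest for 5 of 6. In others the ranks were less alike: no library of the mouse phalanx PZ was the highest or the lowest for more than 3 of 6, and in the rat 1-week tibia PZ none was the lowest for more than 2. Summed over the 6 genes, the mouse 1-week tibia PZ spanned 76 to 760 normalized counts, and the rat 1-week tibia HZ 1888 to 11182.

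Of a list of 49 other endothelial genes, 48 were tested in the mouse and 41 in the rat. For the mouse 1-week tibia, 4-week tibia and phalanx, 40, 39 and 39 were called higher in the HZ and 1, 1 and 0 lower, with list medians of 4.09, 3.21 and 3.16. In the rat 31, 31 and 35 were called higher and 0 lower, with medians of 2.91, 3.15 and 3.05. Without the library that held PZ markers, 41 were called in either direction in the mouse phalanx and 34 in the rat 4-week tibia. The adhesion receptor gene Adgrf5 (log2 difference 4.84 ± 0.27, adjusted p = 1.5e-15), the ETS factor gene Erg (3.17 ± 0.21, 6.2e-14) and the arterial receptor gene Notch4 (5.09 ± 0.35, 9.7e-14) led the list in the mouse 1-week tibia. The genes called lower were Vwf, the platelet adhesion factor, in the 1-week tibia (-2.29 ± 0.61, 2.4e-03) and Tspan18 in the 4-week tibia (-1.11 ± 0.26, 1.2e-03). In the rat phalanx Erg (2.08 ± 0.24, 3.4e-08) and Myct1 (6.42 ± 0.97, 3.3e-06) led. Cldn5, a tight junction gene of endothelium, was at 0 in every rat 1-week tibia PZ library.

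**Figure D4:**
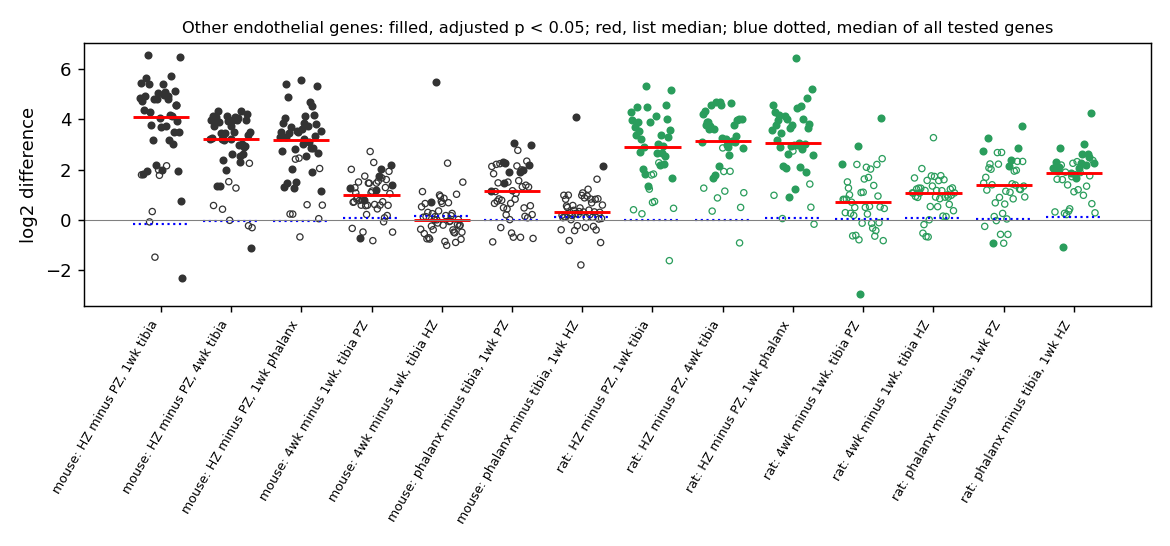
Log2 difference of each tested gene of the list of other endothelial genes, in the comparisons of zone, age and bone of each species. Filled points are called at an adjusted p under 0.05. The red line is the list median and the blue dotted line the median of all genes tested. For the HZ minus PZ comparisons, list medians lie between 2.91 and 4.09, and medians of all genes between -0.15 and 0.08.

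Markers of osteoclasts and macrophages, other cells of the chondro-osseous border, were higher in the same HZ captures. The labels give the cell type as chondrocytes. Of 10 osteoclast genes, 9 were called higher in each mouse HZ (1-week tibia, 4-week tibia and phalanx) and 0 lower. Of all genes tested, 20.4%, 18.6% and 17.9% were called higher there. The summed level of the osteoclast genes was 43786 to 84777 normalized counts in the 1-week tibia HZ against 1992 to 8268 in the PZ. Of 12 macrophage genes, 9, 8 and 7 were called higher and 0 lower, with 4809 to 7002 against 456 to 1589 in the 1-week tibia. Of 13 tested pericyte and vascular smooth muscle genes, 7, 6 and 6 were called higher and 0, 1 and 1 lower. Summed over the 14 listed, levels were higher in the HZ of the 1-week tibia only, at 21199 to 26951 against 12934 to 14265. They were 11317 to 12727 in the HZ against 11843 to 14711 in the PZ of the 4-week tibia. In the phalanx they were 8299 to 14216 against 12312 to 15028. In the rat, 7, 5 and 7 of the 7 osteoclast genes tested were called higher, and 8, 5 and 10 of 12 macrophage genes. Of all rat genes, 22.6%, 13.5% and 22.9% were called higher there. The osteoclast gene Acp5 and the macrophage gene C1qc were at 0 in every rat 1-week tibia PZ library, and no osteoclast or macrophage gene was at 0 throughout a mouse group. The part of these cells in the endothelial result was not tested.

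Of proteases that release Vegf or open the matrix, 6, 6 and 6 of 8 in the mouse and 6, 7 and 7 of 8 in the rat were called higher in the HZ. Of all genes tested, 20.4%, 18.6% and 17.9% were called higher in the mouse and 22.6%, 13.5% and 22.9% in the rat. Mmp9, the gelatinase of osteoclasts and of cells at the vascular front, rose from 1526 ± 1369 to 37347 ± 16230 normalized counts in the mouse 1-week tibia (log2 difference 5.11 ± 0.61, adjusted p = 3.7e-07) and by 5.58 ± 0.83 (7.2e-06) in the rat. Antiangiogenic genes went both ways. Of 13 tested in the mouse, 6, 6 and 7 were called higher in the HZ and 3, 2 and 2 lower. Of all mouse genes, 20.4%, 18.6% and 17.9% were called higher and 23.7%, 16.6% and 17.2% lower. Adamts1, a protease that binds Vegfa, rose by 3.61 ± 0.25 (2.1e-13) in the mouse 1-week tibia, and Lect1, the cartilage inhibitor chondromodulin, fell by 2.67 ± 0.59 (7.1e-04).

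The Vegf receptors and ligands outside the 10 genes were higher in the HZ where called. Flt4, the receptor for Vegfc, differed by 4.81 ± 0.51 (adjusted p = 3.1e-08), 4.11 ± 0.51 (5.5e-07) and 3.53 ± 0.54 (1.5e-05) in the mouse 1-week tibia, 4-week tibia and phalanx. Nrp2, the partner of Flt4, differed by 2.90 ± 0.61 (4.8e-04), 2.10 ± 0.61 (9.6e-03) and 2.50 ± 0.65 (4.2e-03). Pgf, a ligand of Flt1, was called in the rat in all 3 growth plates (3.75 ± 0.74, 2.0e-04, in the 1-week tibia). In the mouse Pgf was called in the 4-week tibia (3.00 ± 1.03, 0.022) and the phalanx (3.71 ± 1.10, 8.0e-03) but not in the 1-week tibia (1.82 ± 1.03, 0.15). Of 30 tested genes of Vegf signal transduction in the mouse, 16, 16 and 12 were called higher in the HZ and 1, 2 and 1 lower. Their medians were 0.58, 0.56 and 0.30. Of all mouse genes, 20.4%, 18.6% and 17.9% were called higher and 23.7%, 16.6% and 17.2% lower.

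Around Tek, Angpt1, its activating ligand, was higher in the HZ in all 3 growth plates: 2.46 ± 0.45 (adjusted p = 3.7e-05), 3.42 ± 0.45 (2.5e-07) and 1.90 ± 0.48 (2.0e-03) in the mouse 1-week tibia, 4-week tibia and phalanx. Tie1, the orphan partner of Tek, differed by 6.45 ± 0.68 (4.9e-09) in the mouse 1-week tibia and 5.15 ± 1.24 (1.5e-03) in the rat. Angpt2, which can block Tek, was not called between zones in the mouse, and was lower in the HZ of the rat 1-week tibia (-1.91 ± 0.50, 2.4e-03).

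Nrp1, a co-receptor for Vegfa that also binds semaphorins and is made by more cells than endothelium, had a zone difference that varied with bone in the mouse. Mouse 1-week tibia PZ libraries held 497, 649, 559, 622 and 677 normalized counts and HZ libraries 1371, 2313, 1300, 3170 and 1734 (log2 difference 1.64 ± 0.21, adjusted p = 7.7e-08). In the mouse phalanx the PZ held 339, 409, 334 and 505 and the HZ 2976, 3116, 2485, 3302 and 1831 (2.78 ± 0.22, 7.4e-11, or 2.91 without the library that held PZ markers). Zones did not overlap in either bone. The difference between these zone effects was 1.13 ± 0.30 (adjusted p = 0.013), with phalanx PZ libraries low and phalanx HZ libraries high, and 1.27 (3.4e-03) without the phalanx HZ library that held PZ markers. Compared within the HZ, phalanx minus tibia was 0.52 ± 0.21 (0.072), and without that library 0.66 (0.022).

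In the rat, the zone difference of Nrp1 varied with both bone and age. Its 1-week tibia PZ libraries stood at 113, 103, 63.6, 221 and 138 normalized counts, its 4-week tibia PZ libraries at 353, 260, 439, 687 and 297, and its phalanx PZ libraries at 189, 294, 594, 238 and 333. The 1-week tibia PZ was thus the low group. Nrp1 was higher there at 4 weeks by 1.69 ± 0.28 on the log2 scale (adjusted p = 5.0e-05, no overlap) and in the phalanx by 1.36 ± 0.28 (1.1e-03, overlapping). The HZ groups, at 2668 ± 468, 1748 ± 481 and 2101 ± 264 for the same growth plates, did not differ by a called amount. The zone effect differed at 4 weeks by -2.34 ± 0.40 (adjusted p = 3.7e-04) and in the phalanx by -1.70 ± 0.40 (3.3e-03). Without the rat 4-week HZ library that held PZ markers, the age value was -2.15 (7.6e-04). Nrp1 was the 1 member of 9 called in each of these tests, against 4.35% and 15.9% of all genes, and both share the 1-week tibia libraries. Macrophage genes moved in the same PZ libraries: 9 of 12 were called higher at 4 weeks and 7 of 12 in the phalanx, with summed levels of 349 to 819 in the 1-week tibia PZ, 1372 to 8030 at 4 weeks and 1357 to 5634 in the phalanx. HZ marker sums in these PZ libraries were 38148 to 68676 in the 1-week tibia, 103615 to 160803 at 4 weeks and 57454 to 197928 in the phalanx. The phalanx PZ library highest in Nrp1, replicate 3 at 594, was the one at 197928. The part of macrophage genes or HZ markers in the Nrp1 result was not tested.

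**Figure D5:**
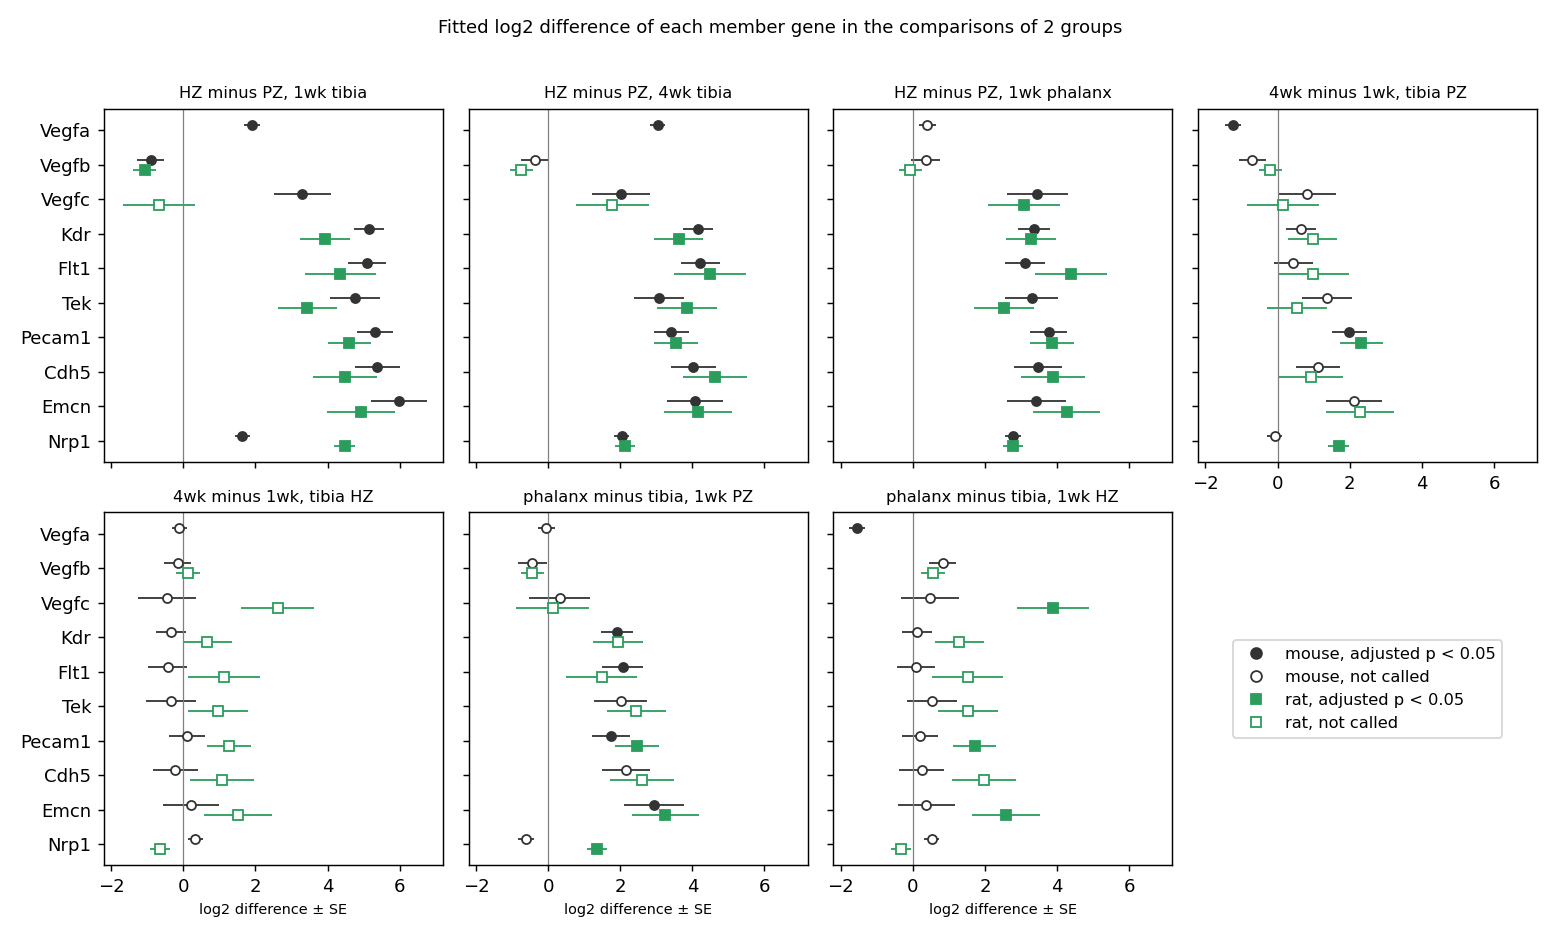
Fitted log2 differences of each member for the comparisons with age, bone and zone, mouse as circles and rat as squares; filled points are called at an adjusted p under 0.05. Zone differences of the 6 endothelial genes lie between 2.53 and 5.99, and mouse Vegfa in the phalanx HZ against the tibia HZ lies at -1.56.

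With age, 2 members were called in the PZ of each species and 0 in the HZ of either. None of the 6 endothelial genes was called in the test of whether the age change differed between zones. Their median log2 differences in the PZ and HZ were 1.24 and -0.28 in the mouse and 0.98 and 1.10 in the rat. In the mouse tibia PZ, 2 of 10 members were called, against 8.57% of all genes: Vegfa lower, as above, and Pecam1 higher by 1.99 ± 0.49 on the log2 scale (adjusted p = 9.5e-03), from 44.1 ± 33.6 to 145 ± 71.9 normalized counts without overlap. The call of Pecam1 was lost by limma-voom on recovered reads (adjusted p = 0.11). In the same PZ libraries the sum over 8 HZ markers was 22290 to 40456 at 1 week and 77259 to 129415 at 4 weeks, with 3 of 8 called higher and 0 lower, and macrophage sums were 456 to 1589 and 983 to 3264, with 2 of 12 called higher and 0 lower. In the mouse HZ 0 of 10 were called, against 15.6% of all genes, and the differences of the 6 endothelial genes lay between -0.43 and 0.22. In the rat PZ 2 of 9 were called, Pecam1 (2.33 ± 0.60, 6.5e-03) and Nrp1, against 16.1% of all genes. Rat Pecam1 was not called by limma-voom (0.14), and HZ marker sums there were 38148 to 68676 at 1 week and 103615 to 160803 at 4 weeks. The part of these markers in the Pecam1 results was not tested. In the rat HZ 0 of 9 were called, against 13.7%, although all 6 endothelial genes had fitted values between 0.67 and 1.52. The count stayed at 0 without the rat 4-week HZ library that held PZ markers, and became 1 without 1-week tibia HZ replicate 4. At an unadjusted p under 0.05 limma gave 0 members in the mouse HZ and 3 in the rat HZ, Nrp1 (lower), Pecam1 and Vegfc (higher). By limma-voom on recovered reads the counts were 0 and 1. Of the other endothelial genes, Esm1, a tip cell gene, was higher in the mouse tibia HZ at 4 weeks, from 12.6 ± 18.1 to 186 ± 66.3 (5.49 ± 0.96, 1.4e-04).

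Between bones, 4 of the 6 mouse endothelial genes were called higher in the phalanx PZ than in the tibia PZ, and none of the 6 was called in the HZ. In the PZ, 4 of 10 members were called higher and 0 lower, while 3.23% of all genes were called higher. Mouse Kdr stood at 111, 164, 130 and 109 normalized counts in the phalanx PZ, all above the tibia PZ (1.91 ± 0.44, adjusted p = 6.6e-03). Flt1 (2.07 ± 0.57, 0.029), Pecam1 (1.75 ± 0.52, 0.047) and Emcn (2.94 ± 0.83, 0.036) overlapped between bones. The size for Emcn depends on the added count, since a tibia PZ library stood at 0. Cdh5 was not called (2.16 ± 0.66, 0.059), nor was Tek (2.02 ± 0.73, 0.12). Kdr kept its call on leaving out any 1 library, while the count of members fell to 1 without phalanx PZ replicate 2 or 5 or tibia PZ replicate 1, 2 or 3 and to 2 without phalanx PZ replicate 1. It was 0 by limma-voom on recovered reads. Osteoclast sums in the same libraries were 7930 to 17211 in the phalanx PZ and 1992 to 8268 in the tibia PZ, with 2 of 10 genes called higher and 0 lower, and macrophage sums were 1004 to 3232 and 456 to 1589, with 0 of 12 called. Their part was not tested.

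In the mouse HZ, 1 of 10 members was called between bones, Vegfa, against 19% of all genes in either direction. The 6 endothelial genes differed there by 0.09 to 0.54 on the log2 scale with 95% intervals from -1.23 to 1.98 for the widest, Emcn. The count was 2 without phalanx HZ replicate 5 or without tibia HZ replicate 4, and 3 without tibia HZ replicate 2. Of the other 48 endothelial genes tested, 2 were called higher, Esm1 (4.09 ± 0.96, adjusted p = 2.4e-03) and Vwf (2.14 ± 0.61, 0.011). In the tests of the zone effect between bones, 2 of 10 members were called in the mouse, Vegfa and Nrp1, against 10.6% of all genes, and 1 of 10, Vegfa, in those between ages, against 2.45%. Kdr was the nearest of the others (-1.80 ± 0.61, 0.052), and 5 members were called without tibia PZ replicate 5, the library highest in 5 of the 6 endothelial genes in its group.

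In the rat PZ, 3 of 9 members were called higher in the phalanx and 0 lower, Pecam1 (2.47 ± 0.60, adjusted p = 5.7e-03), Emcn (3.25 ± 0.94, 0.023) and Nrp1, while 6.77% of all genes were called higher. The count was 0 by limma-voom on recovered reads and 5 in a fit of only the groups compared, where Pecam1 was lost and Cdh5, Kdr and Tek were gained. Emcn was lost without phalanx PZ replicate 1 or 3 or tibia PZ replicate 3 or 4 (adjusted p up to 0.085). Its size in the PZ also depends on the added count, since tibia PZ levels reached down to 0. Osteoclast sums were 5446 to 24248 in the phalanx PZ and 1454 to 2718 in the tibia PZ, with 5 of 7 genes called higher. The highest phalanx sum was that of replicate 3, the library with the highest HZ marker sum of its group. In the rat HZ also 3 were called higher, Vegfc, Pecam1 (1.72 ± 0.60, 0.025) and Emcn (2.59 ± 0.94, 0.032), against 19.7% of all genes. Rat Emcn rose from 218 ± 198 to 868 ± 286 normalized counts without overlap. Without phalanx HZ replicate 3 or tibia HZ replicate 2, 3 or 5 the rat HZ count was 1, and in a fit of only the groups compared it was 6, with Cdh5, Flt1 and Tek gained. Of 41 other endothelial genes, 18 were called higher in the rat phalanx HZ and 1 lower, and the number called in either direction fell to 4 without tibia HZ replicate 3. Osteoclast and macrophage genes moved alike, with 5 of 7 and 10 of 12 called higher and 0 lower in the rat phalanx HZ and summed osteoclast levels of 87639 to 148713 against 9375 to 60061 in the tibia HZ. Summed osteoblast levels were 350164 to 846048 in the rat phalanx HZ against 34128 to 170861 in the 1-week tibia HZ. Chondrocyte sums went the other way, at 1262986 to 2711719 against 2495846 to 4963079. Their part was not tested. Mouse and rat levels were not compared with each other.

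Over all libraries, the genes whose log2 levels ran most like Cdh5 were Abcc9 (mean Pearson r = 0.984 over 29 mouse and 30 rat libraries, of 10363 genes in both), Cd93 (0.981), Mmp9 (0.98), Mmp13 (0.975) and Col4a1 (0.974). For Kdr they included Adam19 (0.972), Spry4 (0.97), Mmp9 (0.967) and Sema6d (0.966). For Nrp1 they included Slco2a1 (0.953), Msn (0.933), Myo1e (0.93) and Myo10 (0.927). Among these genes are Mmp9 of osteoclasts, Abcc9 of the pericyte list and Mmp13 of the HZ markers, beside Cd93 of endothelium. Mouse Vegfa ran most like Arsi (r = 0.909 over 29 libraries, of 15213 genes), Wsb1 (0.902), Kdm3a (0.89), Trio (0.883) and Sptbn1 (0.883), none of which is among those named for Cdh5, Kdr or Nrp1. Each r spans both zones, all growth plates and unequal depths, so the points share their groups, and it is a description only.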

How the data were processed

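RNA from laser-captured zones (5 animals per group) was amplified and sequenced as 50 bp paired-end reads. Per the labels and the study's methods, the authors used STAR 2.4.2 for alignment (mouse build mm10, rat build rn6) and featureCounts 1.4.6 for gene counts, and scaled the counts by Relative Log Expression in DESeq2. The authors deposited 1 table per species, and its values proved to be log2(normalized count + 1). Dividing by the smallest steps gave whole reads (within 0.05) for every value under 200 reads, and these reads gave the depths. Of 60 labelled samples, 59 had a column. Rows whose symbol had become a date (26 mouse, 27 rat) and 216 second rat rows of a symbol were left out.

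limma 3.58.1 (R 4.3.3, trend and robust, statmod 1.5.0) was fitted per species over 6 groups on genes with at least 10 normalized counts in at least 5 libraries, with 9 contrasts per species. The count-type alternative was limma-voom on the recovered reads. Named were all 10 members, the 5 genes most like each of Vegfa (mouse only), Kdr, Cdh5 and Nrp1, the list genes with the smallest adjusted p and those of counts of 5 or fewer. Some of the genes most like Kdr and Nrp1 are not reported here. Other list genes were named for a known role, after their values were seen. The members and lists were chosen with earlier results of these data known. The fits were tested on simulated data. The replicates are labelled as separate samples, but no label ties PZ to HZ libraries of an animal. Replicate numbers were not taken as pairs.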

Additional observations from a re-analysis of the deposited data

Results flagged for a closer look

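Among 114 groups of 4 or 5 libraries checked, 6 had a highest or lowest library that stood apart from the rest by Dixon's test, which chance gives in about 1 in 20 groups. In the mouse 1-week phalanx HZ, Pecam1 in replicate 5 was the lowest at 1132 normalized counts, with the others at 1569 to 1729. In the rat 4-week tibia HZ, replicate 3 was the lowest for Cdh5 at 829.9 (others 4433 to 6649), Flt1 at 211 (1138 to 1817) and Kdr at 763.1 (2621 to 4004). These are the libraries whose PZ marker sums stood apart. Vegfc was highest in rat 1-week phalanx HZ replicate 3 at 198.8 (others 7.66 to 17.6) and in rat 1-week tibia HZ replicate 4 at 5.70 (others at 0).

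In 5 cases the zone difference of a member changed with age or bone by a called interaction in limma. For mouse Vegfa it was larger at 4 weeks by 1.12 on the log2 scale (adjusted p = 0.047) and differed in the phalanx by -1.51 (2.3e-03). For mouse Nrp1 it was larger in the phalanx by 1.13 (0.013). For rat Nrp1 it differed at 4 weeks by -2.34 (3.7e-04) and in the phalanx by -1.70 (3.3e-03).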

How the results depend on the processing

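Of 171 member results, 70 were called, 54 of them under every alternative, and no called value changed sign. Of 50 zone calls, 47 held throughout. With limma-voom on recovered reads the number of members called became 1 for mouse age in the PZ (2 in the report), 0 for mouse bone in the PZ (4), 0 for mouse age by zone (1), 1 for rat age in the PZ (2), 1 for rat age in the HZ (0) and 0 for rat bone in the PZ (3). With only the groups compared it became 0 for mouse age by zone, 5 for rat bone in the PZ and 6 for rat bone in the HZ. With quantile normalization it became 2 for mouse bone in the HZ and 0 for mouse age by zone. The number of hypoxia response genes called for mouse bone in the HZ became 7 with only the groups compared and 5 with the replicate block as well (11 in the report). The cause was not tested. Quantile normalization moved the median of all genes by over 0.1 in the rat zone comparisons (0.01 to -0.13 and 0.01 to -0.12 in the tibia at 1 and 4 weeks, 0.08 to -0.09 in the phalanx) and the rat bone comparison in the HZ (0.13 to 0.03).

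No comparison had all same-numbered pairs correlated above 0.1 (r from -0.127 to 0.286), so the numbers were not taken as pairs. Between zones, 3 or 4 of the 4 or 5 libraries correlated best with their own number in each growth plate, a hint of pairing from the data and not from the design. With the replicate block, and only the groups compared, the number of members called was 0 for mouse age by zone, 4 for rat age in the HZ and 6 for rat bone in the HZ, and mouse Vegfa with age in the PZ stood at an adjusted p of 0.052.

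On leaving out 1 library at a time, the number of members called ranged in the mouse from 2 to 3 (age, PZ), 0 to 0 (age, HZ), 1 to 6 (bone, PZ), 1 to 3 (bone, HZ), 9 to 10, 8 to 9 and 8 to 8 (zone in the tibia at 1 and 4 weeks and in the phalanx), 0 to 1 (age by zone) and 2 to 5 (bone by zone). In the rat it ranged from 2 to 3, 0 to 1, 2 to 3 and 1 to 3 for age and bone, 8 to 8, 7 to 7 and 7 to 8 for zone, and 1 to 1 and 1 to 2 for the interactions. Rat Vegfc, with libraries at 0, is limited by depth.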
